A study of Homo sapiens with 2 samples.

Results

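The heparin-binding growth factors midkine (MDK) and pleiotrophin (PTN) and 6 of their receptors, nucleolin (NCL), the receptor phosphatase PTPRZ1 and the syndecans SDC1, SDC2, SDC3 and SDC4, were followed through the cell lineages of blood-generating heart-forming organoids (BG-HFOs). The 8 genes were picked by symbol and by no threshold on measured values, and all 8 were found among the 36601 rows of each of the 2 count matrices. BG-HFOs are Matrigel-embedded aggregates of human pluripotent stem cells in which heart muscle, vessel, mesenchymal and blood cells form side by side after a change of WNT signalling in 2 phases and the addition of factors that favour blood and vessel formation. Both organoids, labelled 32.7 and 33.10, came from the embryonic stem cell reporter line hES3 NKX2.5-eGFP, were dissociated on day 14 and gave 1 droplet library each (10x Genomics, 3′ chemistry), so that every group below shares line, protocol and day and no treatment was compared. The comparisons were made between cell lineages, to find which cells carry ligand transcripts and which carry receptor transcripts. With 2 organoids of 1 line, the p-values rest on the spread between these organoids. This spread was estimated for each gene over all cell groups fitted together, not from the compared groups alone. Groups of the same organoid were not paired, except where the organoid is named as a block.

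MDK and PTN form a family of their own among the secreted growth factors and bind the sulfated sugar chains of cell-surface and matrix proteoglycans. Syndecans are membrane-spanning proteoglycans that carry such heparan sulfate chains, PTPRZ1 is a membrane phosphatase that carries chondroitin sulfate, and nucleolin is an abundant nucleolar protein of ribosome production that is also found at the cell surface, where it can bind both factors. In embryos both growth factors are made at sites where mesenchyme and epithelium meet, and in the adult they are known from nerve growth, tissue repair and the support of blood stem cells.

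Cells were sorted into 9 lineage gates from their raw UMIs (unique molecular identifiers, each standing for 1 captured transcript) of genes that are no members. A gate required at least 5 UMIs from at least 3 genes of its list and every other list under 25% of that number. The gates took 8567 of 16792 filtered cells (51.0%) in organoid 32.7 and 10010 of 19893 (50.3%) in organoid 33.10. A further 25.0% and 26.9% of the cells met the minimum of a list but entered no gate, since another list reached 25% or more. They are called cells with UMIs of several lists below, although gated cells may hold some UMIs of other lists too. The minimum of no list was met in 23.99% and 22.8%. All pairs of values below give organoid 32.7 and then organoid 33.10, and a level is the number of UMIs of a gene in 1000000 UMIs (CPM), summed over the cells of a gate. The gates held 1432 and 1103 stromal, 2652 and 2826 cardiomyocyte, 2265 and 2184 endothelial, 740 and 2109 megakaryocyte, 558 and 1378 erythroid, 410 and 207 macrophage, 275 and 46 granulocyte and 154 and 24 endodermal cells. A ninth gate, of 81 and 133 cells, was set on MYB, SPN, PTPRC, RUNX1 and KIT.

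Markers outside the gate lists, 4 for each gate, were used to check the gates. In 8 gates they were highest in their own gate in both organoids, with the exception of LYZ, a lysozyme of myeloid cells listed for macrophages and granulocytes, which was highest in granulocyte-gated cells. MYL7, a light chain of atrial muscle myosin, was at 4729 and 3982 CPM in the cardiomyocyte gate and 18.2 and 16.0 CPM in the endothelial gate, and the platelet chemokine PF4 was at 14288 and 13576 CPM in the megakaryocyte gate. Of the 4 markers for the ninth gate only GATA2 was highest there, at 91.1 and 99.7 CPM, while CD34 was at 23.0 and 28.9 CPM against 184 and 200.3 CPM in the endothelial gate, HOXA9 was at 0 and 0 CPM and LYZ reached 1312 and 274 CPM. These cells are therefore called KIT/MYB-gated here and not progenitors. Free RNA was not removed from the deposited counts. The embryonic globin HBZ was found at 884 and 1241 CPM and PF4 at 209 and 524 CPM in the cardiomyocyte gate, and PF4 reached 446 and 2020.0 CPM in the endodermal gate, whose second organoid has few cells. HBZ was at 36.4 and 2669 CPM in the granulocyte gate, where its source was not tested. In the megakaryocyte gate the globins HBE1, at 3573 and 4025 CPM, and HBG2, at 11076 and 12251 CPM, lay above HBZ, at 128 and 357 CPM. In the erythroid gate HBZ lay above both, at 50102 and 44636 CPM. The source of the globin UMIs in the megakaryocyte gate was not tested. The libraries shared 100 barcodes.

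Across the 9 gates, each lineage was compared with the mean of the log2 levels of the other 8. Calls were frequent among all genes in these comparisons, so the members' counts are given with the share of all 20453 genes tested that was called. In the stromal gate 7 members were higher (as were 31.7% of all genes) and NCL was lower (20.1%), and in the cardiomyocyte gate again 7 were higher (34.3%) and NCL was lower (21.0%). In the endodermal gate 6 members were higher (20.1%) and NCL was lower (15.6%). In the endothelial gate MDK and SDC3 were higher (30.5%) and 5 members were lower (23.3%). In the erythroid gate NCL was higher (26.2% of all genes) and 6 members were lower (26.2%), in the KIT/MYB gate NCL was higher (17.0%) and 5 were lower (16.3%), and in the megakaryocyte gate PTN was higher (28.6%) and 3 were lower (20.9%). In the macrophage gate NCL was higher (20.7%) and 3 were lower (17.6%), and in the granulocyte gate NCL was higher (14.8%) and 2 were lower (14.5%). The calls of SDC4 in both of these gates, of PTN in macrophages and of NCL in granulocyte-gated cells turned sign under an alternative, and no direction is drawn from them. All calls were made with the edgeR quasi-likelihood test, Benjamini-Hochberg adjusted at an adjusted p under 0.05. The median log2 difference of the 8 members was 2.90 in the stromal gate, against 0.09 for all genes, and -2.47 in the KIT/MYB gate, against -0.10. In the megakaryocyte gate it was 0.10, against 0.04.

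MDK (ENSG00000110492, chromosome 11 from 46380756 to 46383837, plus strand, GRCh38) was highest in stromal cells, at 1969.6 and 1358 CPM. Cardiomyocytes followed with 1113 and 926 CPM and endodermal cells with 839 and 851 CPM. Endothelial cells had 331 and 321 CPM, and the blood gates lay lower. They ranged from 133 and 125 CPM in granulocyte-gated cells through 95.4 and 79.2 CPM in erythroid cells, 82.7 and 51.9 CPM in macrophages and 68.5 and 62.2 CPM in megakaryocytes to 49.5 and 42.2 CPM in KIT/MYB-gated cells. The organoids overlapped between neighbours in this order only for erythroid cells and macrophages and for macrophages and megakaryocytes. Here and below, overlaps only describe the order of the gates and are not read as results. The share of all genes with separate ranges was not counted. The order among the blood gates depended on the gate. Under a stricter gate, defined below with the collagens, granulocyte-gated cells had 91.7 and 51.0 CPM, overlapping with erythroid cells at 69.2 and 60.6 CPM. Macrophages were then lowest, at 31.5 and 15.4 CPM, below KIT/MYB-gated cells at 34.3 and 37.8 CPM. Under a looser gate, also defined below, megakaryocytes had 129 and 111 CPM, above macrophages at 109 and 66.3 CPM. Relative to the mean of the other gates MDK was higher in stromal cells (log2 3.16 ± 0.13 (SE), adjusted p = 3.44e-11), cardiomyocytes (log2 2.32 ± 0.14, adjusted p = 1.77e-09) and endodermal cells (log2 2.05 ± 0.15, adjusted p = 4.54e-08), and lower in KIT/MYB-gated cells (log2 -2.61 ± 0.23, adjusted p = 4.96e-07, the edgeR quasi-likelihood test, Benjamini-Hochberg adjusted). In endothelial cells the value was 0.50 ± 0.16, adjusted p = 0.0166 with the same test. The arithmetic mean of the other gates, 490.4 CPM, lay above the endothelial level and their geometric mean, 206 CPM, lay below it. Under a looser gate of 3 UMIs from 2 genes the endothelial call was lost (0.25, adjusted p = 0.268, edgeR).

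MDK transcripts were spread over nearly all stromal cells. After each cell was thinned to 2000 UMIs, a step that makes cells of different depth comparable, 95.4% and 90.4% of stromal cells, 78.5% and 75.1% of cardiomyocytes and 46.2% and 45.3% of endothelial cells had at least 1 MDK UMI. In megakaryocytes, where MDK was among the lowest, the share was 8.62% and 9.11% (exact 95% intervals 6.61 to 10.999% and 7.89 to 10.5%). Before thinning, with median depths of 12474 and 10207 UMIs in endothelial cells and 8838 and 8130 in megakaryocytes, the shares were 90.7% and 87.0% and 31.5% and 24.9%. The endothelial share was thus above the megakaryocyte share at equal depth in both organoids. These intervals cover counting error only. The mean of thinned stromal cells was 4.48 and 2.94 MDK UMIs per 2000, with a most extreme cell of 21 and 15.

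PTN (ENSG00000105894, chromosome 7 from 137227341 to 137343774, minus strand, GRCh38) was also highest in stromal cells, at 341 and 450.4 CPM. Megakaryocytes, the platelet-forming cells, came next with 82.2 and 104 CPM, overlapping with cardiomyocytes at 80.2 and 86.6 CPM. Endodermal cells had 67.6 and 55.0 CPM. In the other gates PTN was low. Granulocyte-gated cells had 12.8 and 40.8 CPM, overlapping with macrophages at 16.3 and 10.3 CPM, erythroid cells 6.69 and 7.15 CPM, endothelial cells 3.16 and 4.08 CPM and KIT/MYB-gated cells 0.884 and 2.66 CPM. Both ligands therefore shared their top lineage but parted in endothelial cells, where PTN was low, and in megakaryocytes. Megakaryocytes came next to stromal cells for PTN. For MDK they were next to last by mean, overlapping with macrophages, and this place depended on the gate. PTN was higher in stromal cells (log2 4.37 ± 0.17 (SE), adjusted p = 2.11e-11), megakaryocytes (log2 2.46 ± 0.20, adjusted p = 4.04e-08), cardiomyocytes (log2 1.82 ± 0.20, adjusted p = 1.76e-06) and endodermal cells (log2 1.46 ± 0.28, adjusted p = 0.000757), and lower in endothelial cells (log2 -3.24 ± 0.32, adjusted p = 3.80e-07) and KIT/MYB-gated cells (log2 -4.20 ± 0.50, adjusted p = 1.17e-05), all with the edgeR quasi-likelihood test, Benjamini-Hochberg adjusted. The endodermal level lay below the arithmetic mean of the other gates, 78.1 CPM, and above their geometric mean, 21.7 CPM. The endodermal call was lost with the loose gate (0.68, adjusted p = 0.128, edgeR). In the granulocyte gate it did not pass (-0.25 ± 0.32, adjusted p = 0.641, same edgeR test), and the organoids lay far apart there.

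**Figure D1:**
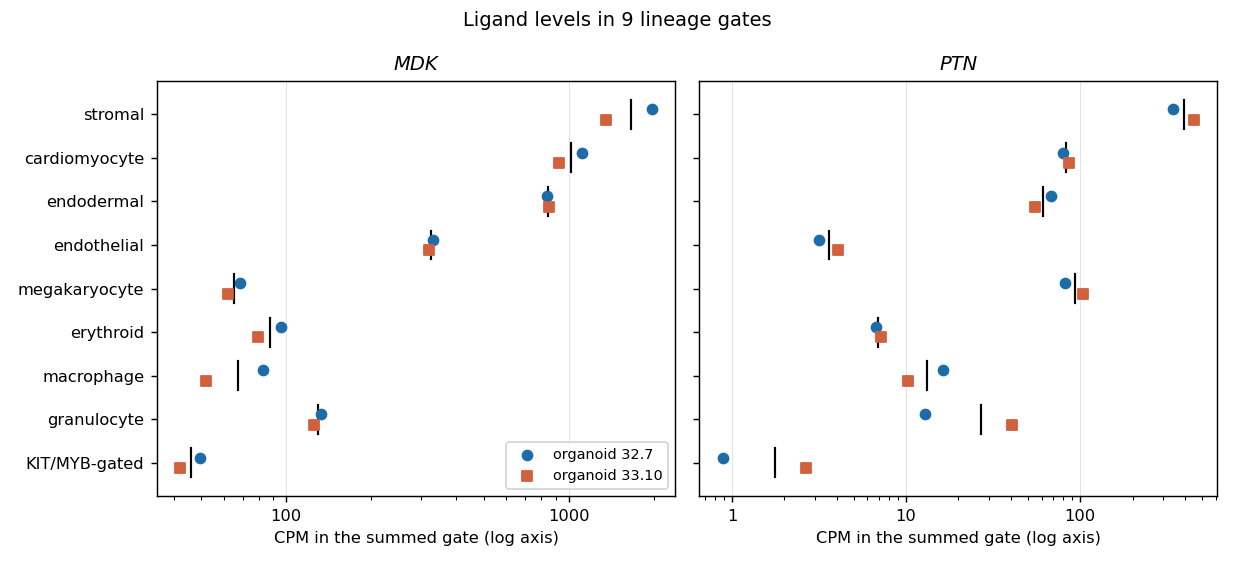
Levels of MDK (left) and PTN (right) in CPM on log axes for the 9 lineage gates, with 1 point per organoid and a black bar at the mean of both. MDK stands at 1969.6 and 1358 CPM in stromal cells and at 68.5 and 62.2 CPM in megakaryocytes, whereas PTN stands at 82.2 and 104 CPM in megakaryocytes and at 3.16 and 4.08 CPM in endothelial cells.

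The sequence before the start site of PTN is shown because PTN set megakaryocytes apart from the other blood gates. RefSeq promoters (build GRCh38.p14) were found for 6 of the members, and MDK and SDC2 were not among them. The 250 bases before the start site, at chr7:137343734-137343983 on the minus strand, read as follows, with capitals reserved for the motifs GGGCGG (bound by SP and KLF factors), AGATAA (bound by GATA factors) and TATAAA on either strand.
PTN: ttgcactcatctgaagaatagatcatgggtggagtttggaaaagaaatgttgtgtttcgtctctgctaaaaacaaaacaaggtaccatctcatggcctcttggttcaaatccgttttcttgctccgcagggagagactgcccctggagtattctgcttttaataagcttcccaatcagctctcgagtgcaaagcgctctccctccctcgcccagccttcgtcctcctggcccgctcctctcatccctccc
None of these letters occurred in this window, so that it holds no capitals. GGGCGG was found in 42.6%, AGATAA in 9.17% and TATAAA in 10.7% of all 35116 promoter windows of this length. The GC content of the PTN window was 50.4%, against a median of 58.0% over all windows.

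Because free RNA can carry transcripts of abundant stromal cells into other droplets, PTN was set against the stromal collagens COL1A1, COL1A2 and COL3A1 of the same gate. Stromal cells held 7.76 and 12.5 PTN UMIs per 100 collagen UMIs. The ratio was 8.21 and 10.4 in cardiomyocytes, 10.9 and 8.95 in endodermal cells and 10.8 and 10.7 in erythroid cells, all within the span of the stromal gate. Megakaryocytes stood apart with 149 and 166 PTN UMIs per 100 collagen UMIs. With a strict gate of at least 10 UMIs and other lists under 10%, the ratio in megakaryocytes was 340.2 and 369 while the PTN level stayed at 92.9 and 97.8 CPM. In cardiomyocytes the strict gate gave a ratio of 8.68 and 10.2 and a level of 60.0 and 67.5 CPM. The collagens themselves were at 977 and 834 CPM in cardiomyocytes and at 55.1 and 62.6 CPM in megakaryocytes. The share of the cardiomyocyte PTN level that comes with stromal RNA was not tested. When the mean RNA profile of the library was subtracted from each gate in proportion to foreign genes, 93.9% and 91.6% of the megakaryocyte PTN UMIs were left, against 69.5% and 62.8% in cardiomyocytes, 12.5% and 10.3% in endothelial cells and 53.6% and 0% in endodermal cells. The log2 value of megakaryocytes was then 4.55, adjusted p = 2.22e-06, and with the strict gate 3.61, adjusted p = 1.55e-10 (both with edgeR's quasi-likelihood test). Subtraction left 0% and 0% of the PTN UMIs of KIT/MYB-gated cells and 16.2% and 0% of those of erythroid cells. The 4.55 was thus taken against gates with few or no UMIs and is not a fold. The strict comparison had no endodermal gate. Neither value is read as a larger difference than the 2.46 of the gate used throughout. The calls of PTN as lower in endothelial and erythroid cells were lost after subtraction (adjusted p = 1 for both), where few or no UMIs remained.

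**Figure D2:**
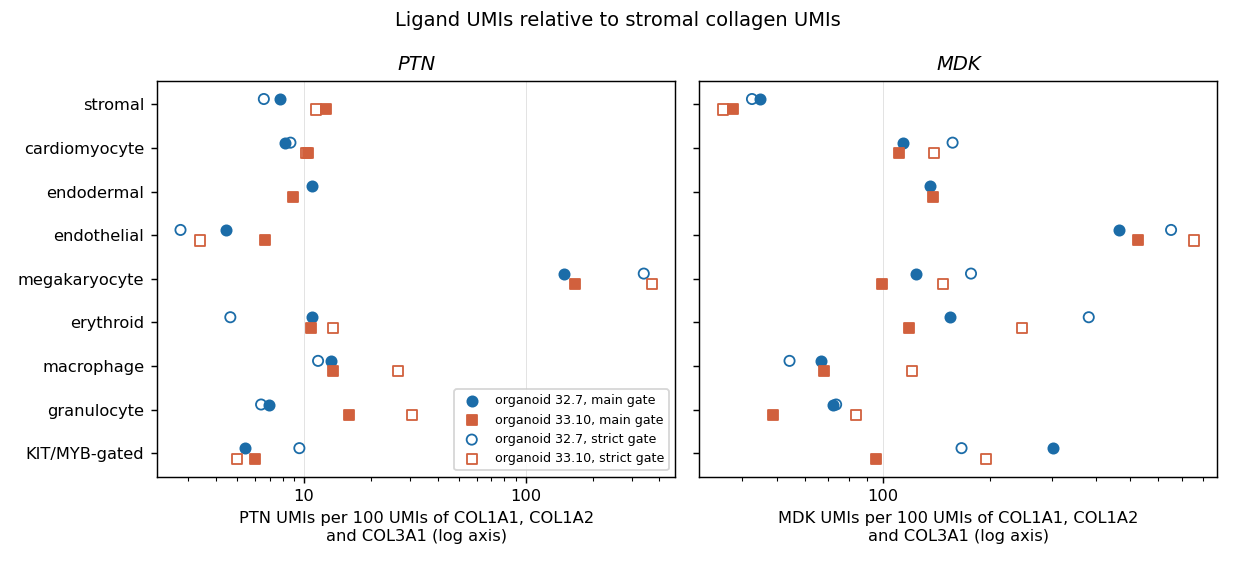
Ligand UMIs per 100 UMIs of COL1A1, COL1A2 and COL3A1 in each lineage gate, on log axes, for PTN (left) and MDK (right). Filled points show the gate used throughout and open points the strict gate, with 1 point per organoid. PTN in megakaryocytes lies at 149 and 166, far to the right of the stromal gate at 7.76 and 12.5, and MDK in endothelial cells lies at 466 and 525.

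MDK gave another picture on the same scale. Stromal cells held 44.8 and 37.7 MDK UMIs per 100 collagen UMIs, cardiomyocytes 114 and 111, megakaryocytes 124 and 99.3 and endothelial cells 466 and 525. Endothelial cells carried the most MDK per collagen UMI of all 9 gates in both organoids. The collagens were at 71.1 and 61.1 CPM there and MYL7 at 18.2 and 16.0 CPM. The share of the endothelial MDK level that comes with stromal or cardiomyocyte RNA was not tested. After subtraction of the library profile 94.0% and 94.8% of endothelial, 84.3% and 84.2% of cardiomyocyte and 98.7% and 97.8% of stromal MDK UMIs were left. In megakaryocytes 47.9% and 36.6%, in erythroid cells 58.1% and 47.0% and in granulocyte-gated cells 68.6% and 35.4% were left.

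The share of megakaryocytes with a PTN UMI showed the same contrast with other blood cells. At 2000 UMIs per cell it was 15.5% and 15.1% (exact 95% intervals 12.8 to 18.4% and 13.5 to 16.7%), against 1.45% and 1.17% of erythroid cells (intervals 0.630 to 2.85% and 0.672 to 1.90%) and 0.667% and 0.784% of endothelial cells. Stromal cells reached 40.8% and 48.9% and cardiomyocytes 12.2% and 12.7%. Unthinned, the shares were 38.9% and 40.9% in megakaryocytes and 4.12% and 4.43% in erythroid cells, at median depths of 8838 and 8130 and 17864.5 and 11728 UMIs. PTN was detected in a larger share of megakaryocytes although the erythroid cells were the deeper ones. In KIT/MYB-gated cells 0 of 80 thinned cells of organoid 32.7 and 1 of 133 of organoid 33.10 had a PTN UMI. The count of 0 allows a share of cells with a PTN UMI, at this depth, of up to 3.75%.

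Seen from the whole organoid, gated stromal cells supplied 22.8% and 13.3% of all MDK UMIs and 28.2% and 19.9% of all PTN UMIs. Gated cardiomyocytes supplied 20.9% and 26.7% of MDK and 10.7% and 11.3% of PTN, endothelial cells 6.56% and 6.05% of MDK and 0.446% and 0.349% of PTN, and megakaryocytes 0.377% and 0.989% of MDK and 3.23% and 7.47% of PTN. Cardiomyocytes contributed more MDK than stromal cells in organoid 33.10 and less in organoid 32.7, although the stromal level per UMI was higher in both. Cells with UMIs of several lists held 39.0% and 43.7% of MDK and 48.1% and 53.1% of PTN, the largest portion for either ligand, and entered none of the tests. They were also the largest class by all genes, with 59815175 of 190521568 and 83429225 of 231325401 UMIs, and held 31.3% and 36.4% of NCL. These portions thus follow the size of a class as well as its level. Droplets with more than 1 cell and cells of mixed identity cannot be told apart in this class, in which the levels were 1042 and 728 CPM for MDK and 180.2 and 196 CPM for PTN.

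**Figure D3:**
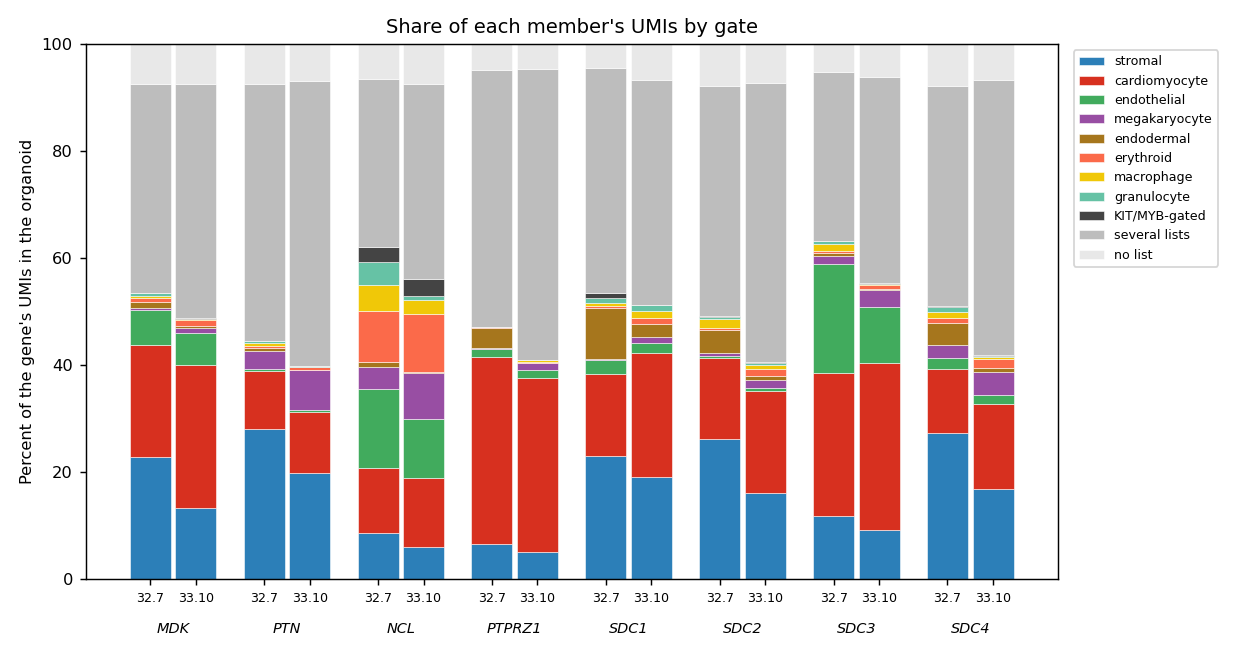
Share of all UMIs of each member by gate, in percent, with 1 stacked bar per organoid and member. Grey parts are cells in no gate, either those with UMIs of several lists as defined above or those that met the minimum of no list. Stromal cells hold 28.2% and 19.9% of PTN and cardiomyocytes 34.9% and 32.6% of PTPRZ1, while NCL is spread over all gates.

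NCL (ENSG00000115053, chromosome 2 from 231453531 to 231483641, minus strand) was found in every lineage and was the only receptor with its highest level in a blood gate. KIT/MYB-gated cells had the highest level, 1457 and 1362 CPM. Granulocyte-gated cells (816 and 855 CPM), macrophages (729 and 919.8 CPM) and erythroid cells (907 and 698 CPM) overlapped with each other, as did stromal cells (519 and 576 CPM), endothelial cells (517 and 546 CPM) and megakaryocytes (522 and 517 CPM). Endodermal cells (442 and 462 CPM) and cardiomyocytes (453 and 421 CPM) were lowest. NCL was higher in KIT/MYB-gated cells (log2 1.16 ± 0.10 (SE), adjusted p = 7.16e-07) and erythroid cells (log2 0.82 ± 0.11, adjusted p = 1.00e-05) and lower in cardiomyocytes (log2 -0.85 ± 0.12, adjusted p = 2.88e-05, the edgeR quasi-likelihood test, Benjamini-Hochberg adjusted). The erythroid value was 0.32 with library totals in place of TMM scaling, and its call passed under all 9 alternatives. Megakaryocytes did not pass (-0.11 ± 0.12, adjusted p = 0.478, same edgeR test). They passed as lower under 2 of 9 alternatives, with values from -0.38 to -0.11. A part of these calls was lost at equal depth. When each cell was thinned to 2000 UMIs the calls in KIT/MYB-gated cells (1.02, adjusted p = 7.98e-05) and erythroid cells (0.60, adjusted p = 0.00438) held with the edgeR test, whereas cardiomyocytes (-0.42, adjusted p = 0.0583), endothelial cells (-0.32, adjusted p = 0.153), stromal cells (-0.22, adjusted p = 0.362), endodermal cells (-0.44, adjusted p = 0.227) and macrophages (0.19, adjusted p = 0.540) did not pass. In granulocyte-gated cells the sign turned (-0.09, adjusted p = 0.907). Cycling cells, defined below, made up 108 of 740 and 242 of 2109 megakaryocytes and 267 of 558 and 464 of 1378 erythroid cells. Non-cycling erythroid cells had NCL at 455 and 433 CPM, macrophages at 467 and 455 CPM and megakaryocytes at 355 and 382 CPM. Non-cycling endothelial cells had 494 and 512 CPM, and the 13 and 33 non-cycling KIT/MYB-gated cells 574 and 1062 CPM. How far the lineage differences in NCL go with cycling was not tested.

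PTPRZ1 (ENSG00000106278, chromosome 7 from 121873089 to 122062036, plus strand), the phosphatase receptor of both ligands, was rare. It was counted 335 and 595 times in all cells of the organoids. Cardiomyocytes held 117 and 194 of these UMIs, or 3.90 and 4.84 CPM, and stromal cells 22 and 30 UMIs, or 1.19 and 2.21 CPM. Endothelial cells held 5 and 9 UMIs, megakaryocytes 1 and 8, and granulocyte-gated and KIT/MYB-gated cells none. Endodermal cells had 12 and 0 UMIs, so that the call there (adjusted p = 0.00221 with the edgeR quasi-likelihood test, Benjamini-Hochberg adjusted) rested on organoid 32.7. In cardiomyocytes PTPRZ1 passed the same edgeR test (adjusted p = 3.49e-06). No fold is given, because several of the gates it was compared with were at 0. At 2000 UMIs per cell, 1.04% and 1.31% of cardiomyocytes had a PTPRZ1 UMI, against 0.0889% and 0.0461% of endothelial cells, and the unthinned shares were 3.58% and 5.20% and 0.132% and 0.321% at median depths of 7582.5 and 10503 and 12474 and 10207 UMIs. After thinning PTPRZ1 was too rare to be tested.

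**Figure D4:**
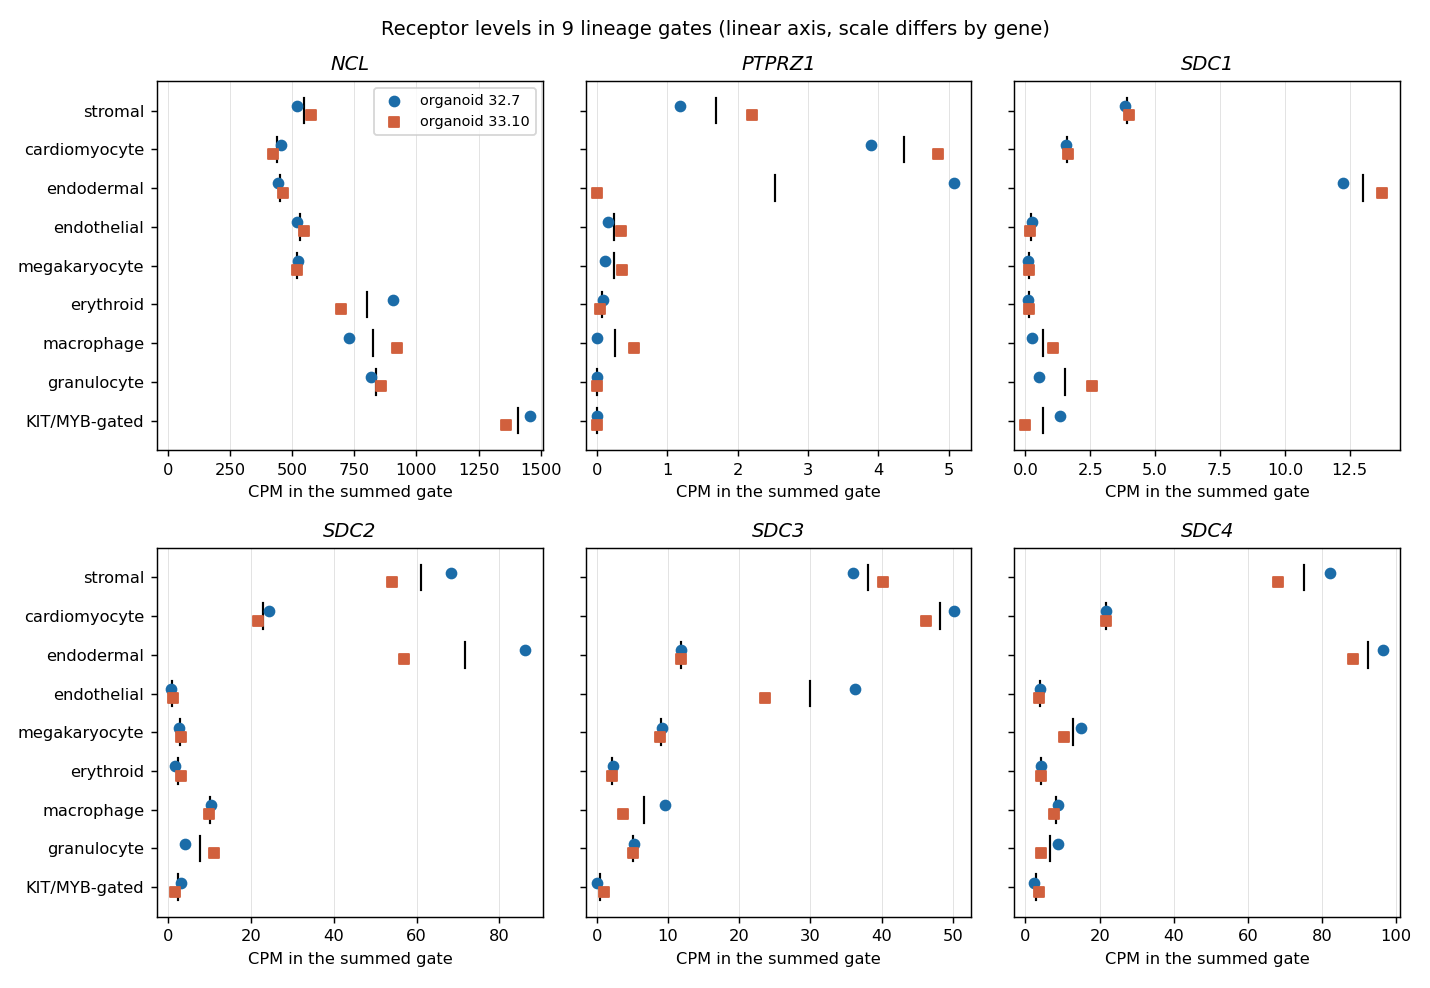
Levels of the 6 receptors in CPM, on linear axes that differ in scale, for the 9 lineage gates, with 1 point per organoid and a black bar at the mean. NCL is highest in KIT/MYB-gated cells (1457 and 1362 CPM), SDC2 and SDC4 are highest in endodermal and stromal cells, and SDC3 is highest in cardiomyocytes (50.1 and 46.2 CPM).

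The syndecans SDC1, SDC2 and SDC4 had the same 3 gates at the top by mean level, endodermal, stromal and cardiomyocyte cells, and differed in the order of the other gates. For SDC1 the third place was not separate. Cardiomyocytes had 1.57 and 1.62 CPM of it and granulocyte-gated cells 0.518 and 2.55 CPM. SDC1 (ENSG00000115884, chromosome 2 from 20200797 to 20225433, minus strand), the syndecan of epithelia and plasma cells, was at 12.3 and 13.8 CPM in endodermal cells and 3.83 and 3.98 CPM in stromal cells, and under 3 CPM in each organoid in all other gates. SDC2 (ENSG00000169439, chromosome 8 from 96493813 to 96611790, plus strand), known from mesenchyme, was at 86.2 and 57.0 CPM in endodermal cells, 68.4 and 54.0 CPM in stromal cells and 24.3 and 21.7 CPM in cardiomyocytes. SDC4 (ENSG00000124145, chromosome 20 from 45325288 to 45348424, minus strand), a widespread syndecan of focal adhesions, was at 96.3 and 88.4 CPM in endodermal cells, 82.1 and 68.1 CPM in stromal cells and 21.8 and 21.7 CPM in cardiomyocytes. For SDC2 the organoids overlapped between endodermal and stromal cells, whereas for SDC1 and SDC4 they did not. The log2 differences in endodermal cells were 4.43 ± 0.44 (SE), adjusted p = 1.53e-06 for SDC1, 3.58 ± 0.24, adjusted p = 1.31e-08 for SDC2 and 3.18 ± 0.17, adjusted p = 1.34e-09 for SDC4, and in stromal cells 2.47 ± 0.32, adjusted p = 9.81e-06, 3.19 ± 0.18, adjusted p = 7.09e-10 and 2.79 ± 0.13, adjusted p = 1.04e-10 in the same order (the edgeR quasi-likelihood test, Benjamini-Hochberg adjusted). The endodermal gate of organoid 33.10 held only 24 cells, and PF4 was at 446 and 2020.0 CPM in this gate. Per 100 collagen UMIs, SDC4 was at 2.23 and 2.60 in cardiomyocytes and at 1.87 and 1.89 in stromal cells. The library profile taken off as free RNA amounted to 20.8% and 24.3% of cardiomyocyte and 26.7% and 45.1% of endodermal UMIs, against 3.03% and 4.96% in stromal cells. The share of the cardiomyocyte syndecan levels that comes with stromal RNA was not tested.

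SDC2 and SDC4 were low in endothelial cells. SDC2 was at 0.727 and 1.26 CPM there, its lowest level in any gate, and SDC4 at 3.89 and 3.74 CPM, above KIT/MYB-gated cells alone (2.21 and 3.65 CPM, without overlap). The log2 difference of SDC2 was -3.51 ± 0.32 (SE), adjusted p = 1.50e-07 and that of SDC4 -2.04 ± 0.19, adjusted p = 2.78e-07 (the edgeR quasi-likelihood test, Benjamini-Hochberg adjusted). Among the blood gates megakaryocytes had the highest SDC4 level, 15.0 and 10.5 CPM, and macrophages had SDC2 at 10.3 and 9.75 CPM. At equal depth 17.4% and 15.1% of stromal cells, 2.82% and 2.08% of megakaryocytes and 0.364% and 0.587% of erythroid cells had an SDC4 UMI. Unthinned shares were 53.8% and 46.9%, 13.8% and 9.10% and 7.53% and 5.15%, with a median depth of 11053 and 10395 UMIs in stromal cells. The megakaryocyte share was above the erythroid share at equal depth in both organoids. SDC4 passed the test as lower in macrophages and granulocyte-gated cells, but the sign turned there when the deepest 5% of cells were left out or each cell was thinned, so that no direction is drawn for these gates. The calls of SDC1 as lower in endothelial cells, erythroid cells and megakaryocytes, which rest on few UMIs (8 and 5, 1 and 3 and 1 and 3), did not pass with the strict gate.

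The 250 bases before the start site of SDC4 are given beside those of PTN because they held the most GGGCGG of the windows found for members. They lie at chr20:45348425-45348674 on the minus strand (RefSeq, GRCh38.p14), with capitals for the same motifs.
SDC4: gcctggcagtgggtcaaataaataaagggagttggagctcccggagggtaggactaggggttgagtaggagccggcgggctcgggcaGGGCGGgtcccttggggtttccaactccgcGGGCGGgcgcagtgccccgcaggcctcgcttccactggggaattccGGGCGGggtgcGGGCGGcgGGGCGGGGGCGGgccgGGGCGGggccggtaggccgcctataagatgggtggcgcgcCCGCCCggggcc
GGGCGG was found 8 times on either strand, with overlaps counted, and neither AGATAA nor TATAAA occurred. The same motif occurred 5 times before SDC3, 2 times each before NCL and PTPRZ1, and 1 time before each of the 2 listed start sites of SDC1. The GC content was 73.6% for SDC4 and 83.6% for SDC3. These matches describe the letters of the windows only.

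SDC3 (ENSG00000162512, chromosome 1 from 30869466 to 30908758, minus strand), the syndecan best known from nerve cells, followed another order. It was highest in cardiomyocytes, at 50.1 and 46.2 CPM, followed by stromal cells at 36.0 and 40.2 CPM and endothelial cells at 36.2 and 23.6 CPM, which overlapped with each other. Endodermal cells, at the top for the other syndecans, had 11.8 and 11.8 CPM, megakaryocytes 9.09 and 8.92 CPM, macrophages 9.54 and 3.69 CPM and KIT/MYB-gated cells 0 and 0.997 CPM. The log2 difference was 2.59 ± 0.19 (SE), adjusted p = 1.40e-08 in cardiomyocytes, 2.24 ± 0.20, adjusted p = 1.32e-07 in stromal cells and 1.86 ± 0.20, adjusted p = 1.07e-06 in endothelial cells (the edgeR quasi-likelihood test, Benjamini-Hochberg adjusted). In endodermal cells it did not pass (0.41 ± 0.39, adjusted p = 0.456, same edgeR test). SDC3 was thus the only syndecan that was higher in endothelial cells than in the mean of the other gates.

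Few cells showed more than 1 syndecan at equal depth. Of thinned stromal cells 27.8% and 26.7% had UMIs of 1 syndecan and 3.23% and 2.74% of 2. Endodermal cells reached 3.47% and 9.09% with 2, on 144 and 22 thinned cells. In cardiomyocytes 15.4% and 15.8% had 1. In endothelial cells 92.4% and 95.02%, and in erythroid cells 98.9% and 98.6%, had none. A cell without a UMI at this depth need not lack the transcript.

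The ligands and receptors were then compared within endothelium. Arterial cells (1389 and 1286 cells) had at least 2 UMIs of CXCR4, DLL4, GJA5 and HEY2 and none of NR2F2, and venous cells (171 and 154 cells) at least 2 UMIs of NR2F2 and none of the arterial genes, at median depths of 13181 and 11405.5 and 11310 and 9707.5 UMIs. SDC3 was at 41.7 and 27.9 CPM in arterial and 13.5 and 5.90 CPM in venous cells (log2 1.95 ± 0.36 (SE), adjusted p = 0.000942, the edgeR quasi-likelihood test, Benjamini-Hochberg adjusted). It was the only member called, while 16.9% of the 19277 genes tested were called and 9.79% were called as higher. SDC3 passed this test under all 9 alternatives tried, with log2 values from 1.66 to 2.18. MDK was at 288 and 286 CPM in arterial and 473 and 445 CPM in venous cells and did not pass (-0.53 ± 0.24, adjusted p = 0.150, same edgeR test). With the organoid as a block it passed (-0.53, adjusted p = 0.0134), as it did with library totals in place of TMM scaling (-0.68, adjusted p = 0.0315). NCL was at 482 and 479 CPM in arterial and 546 and 668 CPM in venous cells and did not pass (-0.19 ± 0.15, adjusted p = 0.466, edgeR), and the other members stayed under 6 CPM in both endothelial groups.

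Within the stromal gate, cells with at least 3 UMIs of the epicardial genes WT1, TBX18, UPK3B, BNC1 and ALDH1A2 (305 and 260 cells) were set against cells with none (613 and 391 cells). These genes belong to the stromal gate list as well. MDK was at 1724 and 1204 CPM in epicardial-gene-positive and 2119.7 and 1529 CPM in negative cells, PTN at 335 and 538 CPM in positive and 330.1 and 375 CPM in negative cells, and SDC4 at 89.0 and 76.3 CPM in positive and 73.0 and 55.6 CPM in negative cells. MDK was lower and PTN higher in positive cells of each organoid, and the ranges of both genes overlapped between the groups. SDC1 was at 3.02 and 2.99 CPM in positive cells (17 and 13 UMIs) and 4.30 and 6.60 CPM in negative cells (27 and 26 UMIs). Whether ranges overlap is not read as a result, since the share of all genes with separate ranges was not counted. None of the members was called, and 0.0311% of the genes tested were (6 of 19277). None of the 8 passed edgeR's test at an unadjusted p under 0.05. With the organoid as a block MDK had an unadjusted p of 0.00758 and was the only one under it, as it was without a filter (unadjusted p = 0.0145), and SDC1 was under it with the loose gate and PTPRZ1 with the strict gate (all edgeR). No setting gave an adjusted p that passed for a member, and DESeq2 called 0 of the 6 members it gave an adjusted p. DESeq2 called 75 genes in this comparison and edgeR with the organoid as a block 74, with 0 members among the latter. The median depth was 16514 and 14835 UMIs in positive and 9165 and 8512 UMIs in negative cells.

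Since nucleolin serves ribosome production, cycling cells were compared with non-cycling cells of the same gate. A cell was taken as cycling with at least 2 UMIs of MKI67 and TOP2A together and as non-cycling with none, and 6 gates had at least 20 cells of each kind in both organoids. NCL was higher in cycling cells in all 12 pairs of gate and organoid (log2 0.72 ± 0.05 (SE), adjusted p = 1.00e-09, mean over the gates). In megakaryocytes it rose from 355 and 382 CPM in non-cycling to 884 and 891 CPM in cycling cells, and in erythroid cells from 455 and 433 to 1109 and 908 CPM. SDC3 (log2 -0.83 ± 0.16, adjusted p = 0.000483), SDC2 (log2 -0.80 ± 0.21, adjusted p = 0.00559), SDC4 (log2 -0.44 ± 0.11, adjusted p = 0.00394) and MDK (log2 -0.36 ± 0.11, adjusted p = 0.0166) were lower in cycling cells, all with the edgeR quasi-likelihood test, Benjamini-Hochberg adjusted. The direction held in 9, 8, 7 and 8 of the 12 pairs for these genes. These values are means over gates that differed. Within single gates SDC4 ranged from -1.62 in macrophages to 0.40 in endothelial cells. SDC2 ranged from -2.73 in megakaryocytes to 0.16 in endothelial cells. Of the 18370 genes tested 17.1% were higher, as was NCL, and 19.3% were lower, as were these 4 of the 8 members. PTN did not pass (0.01 ± 0.14, adjusted p = 1, same edgeR test). Cycling cells were the deeper ones, with a median of 22728.5 and 19798 UMIs against 7613 and 7113 in megakaryocytes. At 2000 UMIs per cell NCL (0.68, adjusted p = 8.21e-09), SDC3 (-1.31, adjusted p = 0.00319) and MDK (-0.40, adjusted p = 0.0115) still passed the edgeR test, whereas SDC2 (-0.85, adjusted p = 0.434) and SDC4 (-0.04, adjusted p = 1) did not. MDK did not pass with free RNA subtracted, with library totals, or with the strict or the loose gate.

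The effect of cycling was then taken within each gate, a comparison added after the data had been seen. In megakaryocytes NCL was higher in cycling cells (1.09 ± 0.13, adjusted p = 2.30e-06) and 4 members were lower, SDC3 (-2.56 ± 0.44, adjusted p = 0.000197), SDC2 (-2.73 ± 0.66, adjusted p = 0.00368), PTN (-1.14 ± 0.28, adjusted p = 0.00447) and SDC4 (-1.10 ± 0.24, adjusted p = 0.00198), where 16.2% of all genes were higher and 14.0% lower by the edgeR quasi-likelihood test, Benjamini-Hochberg adjusted. PTN was at 44.5 and 66.2 CPM in cycling and 99.2 and 119.6 CPM in non-cycling megakaryocytes, and SDC3 at 1.97 and 2.53 CPM in cycling and 13.1 and 11.5 CPM in non-cycling ones. The SDC3 level in cycling megakaryocytes rests on 5 and 13 UMIs. With the loose gate the PTN, SDC2 and SDC4 effects in megakaryocytes did not pass, and at 2000 UMIs per cell SDC2 and SDC4 did not. In macrophages NCL was higher (7.62% of genes) and MDK, PTN, SDC2 and SDC4 were lower (4.38%). There NCL passed under all 8 alternatives, whereas MDK, PTN and SDC4 did not pass with the strict gate, the loose gate or at 2000 UMIs per cell, SDC2 did not pass at 2000 UMIs per cell or without the deepest cells, PTN did not pass with free RNA subtracted, and MDK turned sign with free RNA subtracted (0.066). In endothelial cells NCL and PTN were higher (5.73% of genes), PTN from 2.19 and 4.14 to 15.3 and 6.35 CPM. The NCL call was lost with the loose gate and at 2000 UMIs per cell, and the PTN call with the strict gate and at 2000 UMIs per cell. In erythroid cells (8.13% of genes higher) and stromal cells (5.76% higher) NCL alone was called, as higher. The stromal call was lost without a filter, with the loose gate, with free RNA subtracted, without the deepest cells and at 2000 UMIs per cell. In cardiomyocytes (10.6% of genes called) no member was called, with NCL at 0.34 ± 0.12, adjusted p = 0.0957 (edgeR). PTN in stromal cells was at 493 and 516 CPM in cycling and 299 and 411 CPM in non-cycling cells and did not pass (0.45 ± 0.26, adjusted p = 0.335, edgeR). When the effect in 1 gate was set against the mean effect in the other 5, SDC3, SDC2, PTN and NCL differed in megakaryocytes (12.2% of genes called), NCL in cardiomyocytes (6.23%) and PTN in endothelial cells (2.27%) and macrophages (0.452%).

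**Figure D5:**
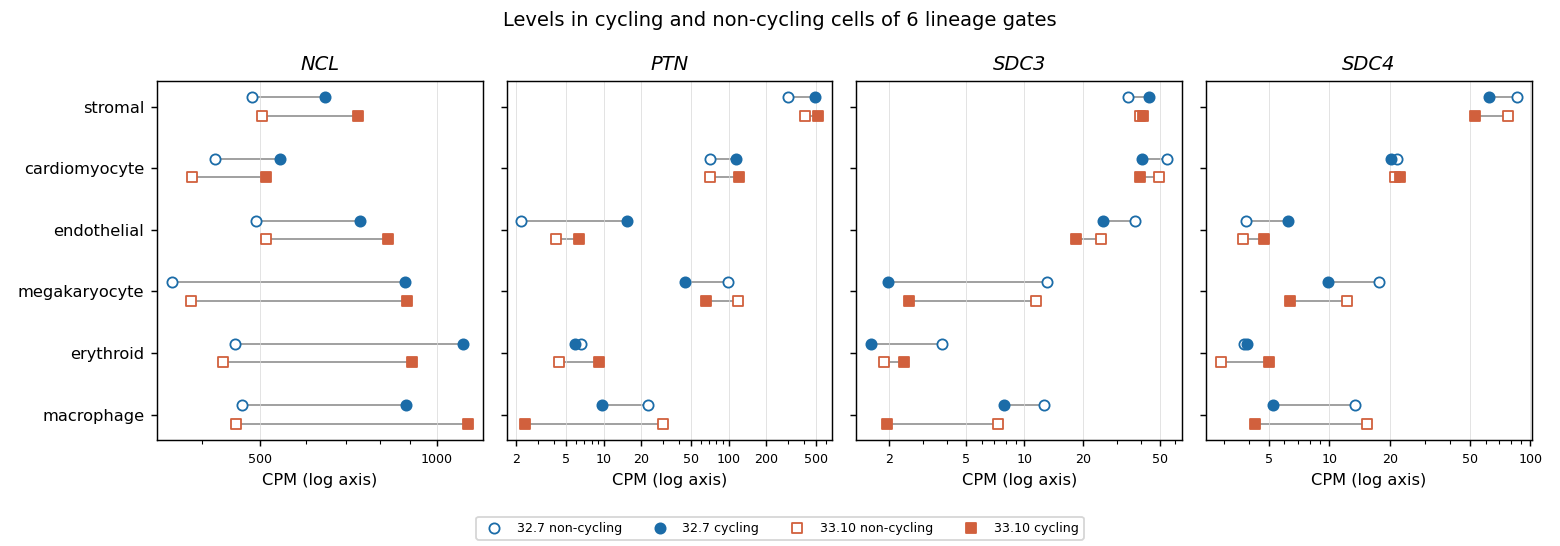
Levels in CPM on log axes of NCL, PTN, SDC3 and SDC4 in cycling (filled) and non-cycling (open) cells of 6 lineage gates, joined by a line within each organoid. NCL lies further right in cycling cells in all 12 pairs, and PTN and SDC3 lie further left in cycling megakaryocytes in both organoids.

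A further 15 genes, listed as possible binding partners of midkine or pleiotrophin, were read in the same comparisons, and CSPG5 was the only one too low to be tested. Binding itself was not tested. The numbers of these that were higher and lower, out of 14 tested and with the shares of all genes called in each direction in parentheses, were 12 and 1 in cardiomyocytes (34.3% and 21.0%), 9 and 4 in stromal cells (31.7% and 20.1%), 7 and 5 in endothelial cells (30.5% and 23.3%) and 7 and 2 in endodermal cells (20.1% and 15.6%). They were 2 and 9 in megakaryocytes (28.6% and 20.9%), 1 and 11 in erythroid cells (26.2% and 26.2%), 5 and 5 in macrophages (20.7% and 17.6%), 3 and 5 in granulocyte-gated cells (14.8% and 14.5%) and 2 and 7 in KIT/MYB-gated cells (17.0% and 16.3%). The median log2 difference of this list was 1.27 in cardiomyocytes, where the median of all genes was 0.14, and -1.37 in erythroid cells, where it was -0.11. ALK, a receptor tyrosine kinase for which both factors have been described as ligands, was at 95.5 and 141 CPM in endodermal cells (adjusted p = 2.79e-10), 40.2 and 25.4 CPM in stromal cells (adjusted p = 1.93e-09) and 8.13 and 5.91 CPM in cardiomyocytes (adjusted p = 0.000103, all with edgeR), and at 0 in KIT/MYB-gated cells of both organoids, so that no fold is given. The endocytic receptors LRP2, at 44.8 and 37.3 CPM (log2 6.53 ± 0.51), and LRP1, at 90.9 and 82.5 CPM (log2 2.83 ± 0.22), were higher in endodermal cells too.

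Vessel and blood gates carried other genes of this list. PTPRB, a receptor phosphatase of endothelium and a gene other than PTPRZ1, was at 237 and 229.8 CPM in endothelial cells (log2 4.54 ± 0.16). The semaphorin and VEGF co-receptor NRP1 was at 905 and 1031 CPM in endothelial cells (log2 2.49 ± 0.11) and 1208 and 1323 CPM in macrophages (log2 3.09 ± 0.10), against 14.4 and 24.5 CPM in erythroid cells (log2 -3.19 ± 0.17). ITGB3, the beta chain of the platelet fibrinogen receptor, was at 444 and 445 CPM in megakaryocytes (log2 6.06 ± 0.22). The leukocyte integrin chain ITGA4 was higher in KIT/MYB-gated cells (254 and 199 CPM, log2 3.32 ± 0.20), erythroid cells (155 and 126 CPM), granulocyte-gated cells (160.0 and 91.9 CPM) and macrophages (113 and 144 CPM), and lower in stromal cells (6.48 and 4.28 CPM, log2 -2.79 ± 0.31). Each of these named differences passed the edgeR quasi-likelihood test, Benjamini-Hochberg adjusted.

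The 17 listed enzymes that build or cut the sugar chains bound by both factors were all tested. The numbers higher and lower, again with the shares of all genes, were 7 and 2 in cardiomyocytes (34.3% and 21.0%), 9 and 4 in stromal cells (31.7% and 20.1%), 10 and 3 in endothelial cells (30.5% and 23.3%) and 3 and 1 in endodermal cells (20.1% and 15.6%). They were 3 and 11 in megakaryocytes (28.6% and 20.9%), 3 and 12 in erythroid cells (26.2% and 26.2%), 7 and 5 in macrophages (20.7% and 17.6%), 2 and 3 in granulocyte-gated cells (14.8% and 14.5%) and 3 and 6 in KIT/MYB-gated cells (17.0% and 16.3%). The median log2 difference of the list was 0.38 in endothelial cells, against 0.04 for all genes, and -1.02 in megakaryocytes, against 0.04. HPSE, the heparanase that cleaves heparan sulfate, was at 256 and 201 CPM in megakaryocytes (log2 5.81 ± 0.20) and 0.972 and 1.99 CPM in stromal cells. XYLT2, which starts the chains, was also higher in megakaryocytes (55.9 and 52.4 CPM, log2 2.42 ± 0.11). SULF1, which removes sulfate groups from heparan sulfate outside the cell, was at 146 and 105 CPM in stromal cells (log2 4.53 ± 0.27), and EXT1, a polymerase of heparan sulfate, at 539 and 646 CPM in cardiomyocytes (log2 2.54 ± 0.17). In endothelial cells the sulfotransferases CHST3 (29.5 and 28.0 CPM, at 0 in KIT/MYB-gated cells), CHST15 (51.5 and 60.2 CPM, log2 3.97 ± 0.24) and NDST1 (103 and 104 CPM, log2 2.48 ± 0.09) were higher, and in erythroid cells HS6ST2 (120.4 and 206 CPM, log2 3.69 ± 0.22). Each of these passed the edgeR quasi-likelihood test, Benjamini-Hochberg adjusted.

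The rule for names also gave further genes of both lists. Higher were LRP2, GPC2, CHST3 and HS6ST2 in cardiomyocytes, HS6ST2 and SULF2 in endodermal cells, SORL1, CHST11 and CHSY1 in granulocyte-gated cells, CHST15 and HPSE in macrophages, and CHST3 in stromal cells. Lower were CHST11 in endodermal cells, LRP2 in endothelial cells and megakaryocytes, SORL1 in erythroid cells and megakaryocytes, HPSE and SULF2 in erythroid cells, GPC2 and EXT1 in granulocyte-gated cells, PTPRS in macrophages, and ITGB3 and HPSE in stromal cells. HS6ST2 was lower in macrophages, megakaryocytes and KIT/MYB-gated cells, and LRP1, SULF1, ALK and CHST3 were lower in the latter. SORL1, a sorting receptor, was at 44.7 and 24.7 CPM in granulocyte-gated cells (log2 2.97 ± 0.27, edgeR), and HPSE was at 26.3 and 39.8 CPM in macrophages (log2 2.37 ± 0.28, edgeR).

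Genes with a pattern over the 9 gates most like that of a member were listed among 10999 genes with at least 20 CPM in some gate, by Pearson's r of log2(CPM + 1), as a description without a test. For MDK they were AL031058.1, LINGO2, THSD4, MAGI3 and BMP4 (r from 0.988 to 0.990), and for PTN GNG8, FAM110B, ANK3, JPH4 and PLXNA4 (r from 0.943 to 0.974). For SDC1 they were BX284613.2, CAMK2N1, TOX3, VTN and MAL2, for SDC2 P4HA1, PPFIBP2, GPC3, SOX9 and TDO2, for SDC3 NRG2, NES, ZCCHC24, PPIC and BAD, and for SDC4 LOX, FZD7, ALK, GPC3 and GSTA1. GPC3, a glypican of the same proteoglycan class, was among the 5 nearest genes of both SDC2 and SDC4, and ALK among those of SDC4. Between members r was 0.93 for SDC2 and SDC4, 0.90 for SDC1 and SDC2, 0.85 for PTN and SDC4, 0.66 for MDK and PTN and -0.87 for NCL and SDC3. These are correlations over 9 gates that share libraries and free RNA.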

How the data were processed

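Droplet libraries of 2 organoids were analysed, 1 per organoid. With Cell Ranger 7.0.0 the authors aligned reads to GRCh38, intronic reads included, and made the deposited counts of UMIs for each gene in each barcode. They are not normalized and precede the study's depth equalization, its removal of free RNA and its cell filter. The libraries held 191152562 and 233818881 UMIs in 16866 and 19948 barcodes. Cells with 50 to 11000 genes and under 30% mitochondrial UMIs were kept, and doublets were not called. Each cell was then gated on raw UMIs, the KIT/MYB list not being counted against blood gates. Leaving out the 5% of cells with most UMIs was an alternative.

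Members, lists and gates were chosen with earlier results of these data known. UMIs were summed per gate and organoid (at least 20 cells each) and tested with edgeR 4.0.16 (R 4.3.3, TMM, filtered by expression), with Benjamini-Hochberg adjustment over all genes tested. The SE of a log2 difference was taken from the F statistic of its test. Tests were checked on simulated counts, drawn without any difference shared by the gates of an organoid. This check cannot cover the pairing of gates by organoid given below. The simulated gates shared 1 profile apart from a small set of changed genes. The check therefore cannot cover scaling between gates that differ in many genes either. Named were the members, up to 3 genes of each list per gate with the largest difference past the threshold, and the 5 genes most alike to a ligand or syndecan. Gates of 1 organoid come from 1 library, which pairs them by organoid. The log2 difference between organoids correlated over 7726 genes by 0.03 to 0.60 (median 0.29) between gates, above 0 in all 36 pairs. Alternatives were an organoid block, DESeq2 1.42.0, library totals, no filter, strict and loose gates, subtraction of free RNA, and thinning to 2000 or 5000 UMIs. Intervals of shares are exact (Clopper-Pearson, scipy 1.17.1) at 95%, and a count of 0 was given 3 counts as its upper limit. Gene positions come from GENCODE for GRCh38, matched by Ensembl identifier.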

Additional observations from a re-analysis of the deposited data

Results flagged for a closer look

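The effect of cycling on a member differed between lineage gates in 7 tests of the difference itself, the effect in 1 gate minus the mean effect in the other 5 (edgeR quasi-likelihood test, Benjamini-Hochberg adjusted over 18370 genes). In megakaryocytes, where 12.2% of all genes were called in this test, 4 members differed. SDC3 was lower in cycling cells by more than elsewhere (-2.07 ± 0.49, adjusted p = 0.00901), as were SDC2 (-2.32 ± 0.73, adjusted p = 0.0446) and PTN (-1.38 ± 0.33, adjusted p = 0.0101), and the rise of NCL was larger (0.43 ± 0.14, adjusted p = 0.0457). In cardiomyocytes the effect of cycling on NCL was smaller than in the other gates (-0.46 ± 0.14, adjusted p = 0.04998, with 6.23% of genes called). PTN differed in endothelial cells (2.01 ± 0.50, adjusted p = 0.0412, with 2.27% called) and in macrophages (-2.39 ± 0.48, adjusted p = 0.0322, with 0.452% called).

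All 7 kept their sign under the 8 alternatives tried. SDC3 in megakaryocytes passed in 6 of them, PTN in megakaryocytes and in endothelial cells in 5, SDC2 in megakaryocytes in 4, PTN in macrophages and NCL in cardiomyocytes in 3, and NCL in megakaryocytes in 2. The PTN values in endothelial cells rest on 32 and 12 UMIs in cycling cells, and 12.5% and 10.3% of endothelial PTN UMIs were left after subtraction of free RNA. In macrophages cycling cells had 44 and 6 PTN UMIs. With each cell thinned to 2000 UMIs only PTN in megakaryocytes passed (-1.501, adjusted p = 0.0194), and with free RNA subtracted PTN in endothelial cells (adjusted p = 0.0113) and SDC3 in megakaryocytes (adjusted p = 0.0251) did, all with edgeR.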

How the results depend on the processing

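Of 61 member results, 60 of them called, 56 kept their direction (leave-one-out values included) under every alternative that gave a value, and 33 of the called ones passed in every tested one. Apart from MDK between arterial and venous cells, member results that were not called were not followed in these counts. The results that turned were NCL in granulocyte-gated cells (-0.087 thinned), SDC4 in granulocyte-gated cells (0.056 without the deepest cells, 0.30 thinned) and in macrophages (0.069 without the deepest cells, 0.32 thinned), PTN in macrophages (0.26 with free RNA subtracted) and PTPRZ1 in endodermal cells (fitted values of -2.54 without replicate 1 and -2.54 to 4.28 when each organoid was left out, which are not folds, since organoid 33.10 held 0 endodermal UMIs of it). Among the effects of cycling within gates, added after the data were seen, MDK in macrophages turned with free RNA subtracted (0.066).

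Thinning lowered the number of genes called to 1215 for arterial against venous, 6295 for cardiomyocytes, 2705 for cycling, 1490 for endodermal, 6044 for endothelial, 5478 for erythroid, 1686 for granulocyte-gated, 3182 for macrophage, 5815 for megakaryocyte, 1604 for KIT/MYB-gated and 5491 for stromal cells, where fewer UMIs were tested. KIT/MYB-gated cells gave 4338 genes without the deepest cells. The 6 genes called between epicardial-gene-positive and negative cells became 75 with DESeq2, 74 with the replicate block, 384 without a filter, 20 thinned, 13 with the strict gate and 11 without the deepest cells, and the cause was not tested.

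Among these 61 results, the replicate block, in which the organoid pairs the gates, changed 1 call and turned no direction. The changed call was MDK between arterial and venous cells (-0.53, adjusted p = 0.0134, edgeR). Library totals moved the median log2 difference of all genes by -0.48 (erythroid) to 0.20 (cardiomyocytes) and DESeq2 by -0.13 (arterial against venous) to 0.14 (endodermal). The share of calls that were higher moved with library totals from 62.1% to 76.1% in cardiomyocytes, from 61.1% to 73.7% in stromal cells, from 49.9% to 21.3% in erythroid cells, from 57.8% to 39.6% in megakaryocytes, from 47.0% to 68.7% in cycling cells, from 56.3% to 67.4% in endodermal cells and from 58.1% to 41.2% for arterial against venous. DESeq2 gave 68.2% in endodermal cells, 41.8% for arterial against venous and 40.0% against 83.3% for the epicardial comparison. None of the 61 results changed direction under either scaling, and NCL in erythroid cells was 0.32 with library totals against 0.82.

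The endodermal gate fell under 20 cells in organoid 33.10 with the strict gate and without the deepest cells, so it gave no value there. Leaving out an organoid leaves no residual degrees of freedom, so that only values were obtained, and PTPRZ1 and SDC1 were too rare to be tested after thinning. The depth leaves PTPRZ1 and SDC1 with few UMIs outside their highest gates.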
